A study of Zea mays with 9 samples.

Results

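In young maize tassels 76 of 39305 gene identifiers made up the set described here: transcripts with less signal in the needle1 mutant (ndl1) than in wildtype, and with a mean close to wildtype in the Bif1;Bif4 double mutant. The members were chosen from measured values. For each mutant L was calculated as the log2 of (mean mutant count + 1) over (mean wildtype count + 1), from the normalized counts of that mutant's table. A member had a wildtype mean of at least 50, an L of at most -0.7 in ndl1, all 4 ndl1 libraries below all 3 wildtype libraries, and an L between -0.4 and 0.4 in Bif1;Bif4. The differences between either mutant and wildtype therefore describe how the members were picked. Calls and intervals given for members below come from fits over all genes on the same values and are descriptions, not independent tests.

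RNA was sequenced from field-grown tassels of 2 to 4 mm in the B73 inbred background, with 3 wildtype libraries, 4 from plants with the ndl1/zmftsh10 mutation and 2 from plants heterozygous for both Bif1 and Bif4. Per the labels, the ndl1 material contained strongly affected tassels on which some axillary meristems were still present. The libraries held 16863087 to 22533736 reads counted to genes. The meristem homeobox gene kn1 had reads in all 9 libraries, from 5048 to 8650 normalized counts when the libraries were scaled together, and so had td1 and wus1. NDL1 itself (GRMZM2G038401) stood at 3182 to 3517 normalized counts in wildtype, 2940 to 3474 in ndl1 and 2947 to 3199 in Bif1;Bif4, so its transcript level does not tell the ndl1 libraries from the others. The labels do not say whether libraries came from separate plants, so the spread between them may be technical.

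NDL1 encodes a mitochondrial member of the FtsH family, ATP-dependent proteases of organelle membranes that degrade damaged and unassembled membrane proteins. Bif1 and Bif4 encode Aux/IAA proteins, which repress auxin responses until auxin triggers their breakdown. A tassel of this size bears the meristems that will become branches and spikelets, and auxin response is needed to start them. In bulk tissue of this kind fewer cells of a type and less RNA per cell cannot be told apart.

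Most members were moderately lower in ndl1. L ran from -3.12 to -0.71 with a median of -0.88, against a median of -0.01 over all 18511 identifiers with a wildtype mean of at least 50. The ndl1 mean was 54.1% of the wildtype mean for the median member, 10.3% for the lowest and 61.2% for the highest. Of the 76 members 29 had an L of -1 or less and 5 an L of -2 or less. At the threshold the members GRMZM2G166159, GRMZM2G134998 and GRMZM2G135501 had an L of -0.71, and GRMZM5G855337, GRMZM2G168214 and GRMZM5G808899, which met all other criteria, lay just outside at -0.70. Members had fewer reads than the average gene, with a median wildtype mean of 212 normalized counts against 526 over the 18511. Of these members 19 lay under 100 and 8 at 1000 or more.

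Only part of the set can be given a function. Of the 76 identifiers 50 matched a single gene and 1 matched several genes in the RefSeq table (assembly Zm-B73-REFERENCE-NAM-5.0), while 25 matched none. The unmatched share was 32.9% among members and 27.9% among all 18511. A descriptive name was found for 11 members, or 14.5% against 10.2%. The 11 included transcription factor genes of several families, a gene of the cytokinin receptor family, a potassium transporter gene and a gene of lignin synthesis. The levels below are normalized counts, each library's reads divided by its size factor. Fold changes are limma differences of mean log2(normalized count + 1) with their standard error (SE).

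**Figure D1:**
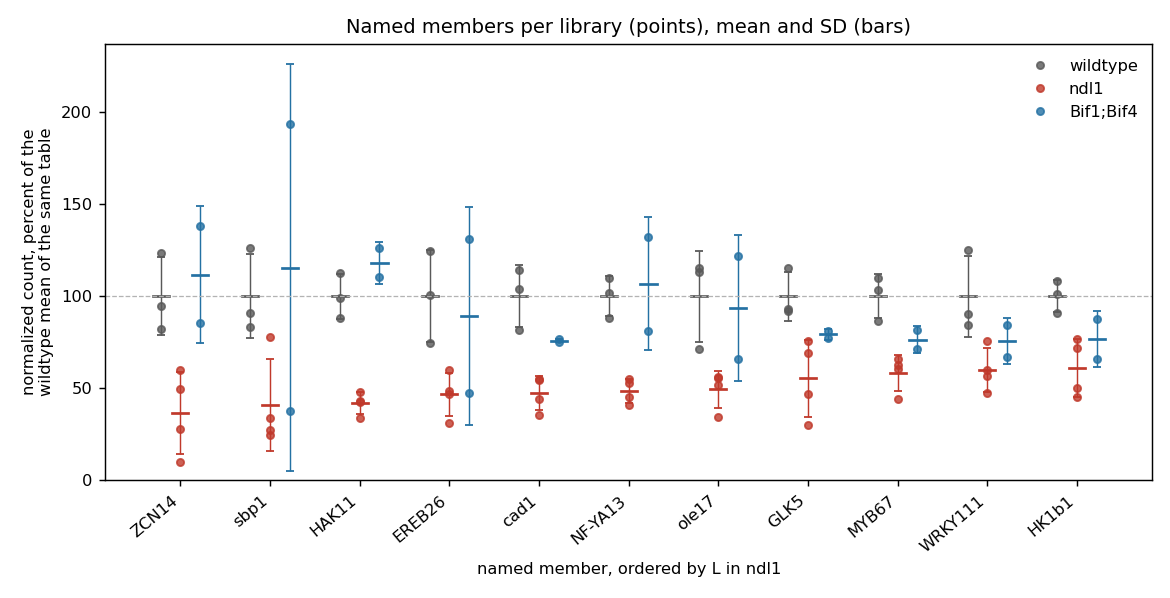
Normalized counts of the 11 named members in each library, as a percent of the wildtype mean of the same table (linear axis from 0), with points for libraries and bars for the mean and SD. All ndl1 points lie below all wildtype points, as the rule required, while the Bif1;Bif4 pair of sbp1 lies far apart, at 189 and 36.6 normalized counts.

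Among the named members 3 belong to families known for the control of flowering and developmental phase. ZCN14 (GRMZM2G373928) is a gene of the FT/TFL1 family, whose members promote or delay flowering. It stood at 106, 159.9 and 122.97 normalized counts in the wildtype libraries and at 13.0, 35.8, 77.6 and 64.2 in ndl1, a log2 fold change of -1.68 ± 0.54 (SE). In Bif1;Bif4 it stood at 178 and 109.7 against a wildtype mean of 129 ± 27.2 (SD, n = 3) in that table. The ndl1 libraries spread widely, with replicate 1 lowest, and none reached the lowest wildtype library. The listed symbol sbp1 (GRMZM2G111136) is that of the SBP box family, transcription factors of which many act in phase change and inflorescence branching. It stood at 82.1, 124.3 and 89.3 in wildtype and at 24.2, 33.6, 76.7 and 26.7 in ndl1, a log2 fold change of -1.41 ± 0.39. Replicate 3 was close to wildtype, and the other ndl1 libraries lay well below it. Its Bif1;Bif4 libraries, at 189 and 36.6, lay on opposite sides of the wildtype range, so that its mean near wildtype came from a high and a low library.

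NF-YA13 (GRMZM5G857944) encodes a subunit of the NF-Y complex, which binds CCAAT sequences in promoters. It stood at 155, 134 and 167 in wildtype and at 68.7, 83.9, 80.2 and 62.2 in ndl1, a log2 fold change of -1.04 ± 0.16. The ndl1 libraries were tightly grouped, and the Bif1;Bif4 libraries lay at 199 and 122 around the wildtype mean of 151 ± 16.2 (SD, n = 3). The relatives of these genes were set beside them, with the families chosen once the members' names were known. All 9 tested NF-YA genes had a negative fold change in ndl1 (median -0.18). None of the other 8 was called (limma, Benjamini-Hochberg adjustment over all genes at 0.05), while NF-YA13 was chosen for its low values. NF-YA11 had a log2 fold change of -0.78 ± 0.24 that was not called. Of 22 SBP box genes 10 had negative and 12 positive fold changes (median 0.07), with none called. Of 7 ZCN genes 4 were negative and 3 positive (median -0.19), likewise with none called. Over all 22416 genes tested the median was -0.00.

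Another 4 named members are transcription factor genes of families with many roles. EREB26 (GRMZM2G317160), of the AP2/ERF family, stood at 476, 383 and 285 in wildtype and at 119, 229, 185 and 179 in ndl1, a log2 fold change of -1.10 ± 0.24. Replicate 1 was again lowest. In Bif1;Bif4 it lay at 180.4 and 497, below and above the wildtype libraries. GLK5 (GRMZM2G016370), listed among the G2-like genes, stood at 82.1, 65.5 and 66.1 in wildtype and at 53.9, 21.3, 33.5 and 49.4 in ndl1, a log2 fold change of -0.91 ± 0.32. Here replicate 2 was lowest and replicate 1 highest, unlike in most members. MYB67 (GRMZM2G089244) stood at 98.6, 118 and 125 in wildtype and at 50.2, 75.0, 68.8 and 71.1 in ndl1, a log2 fold change of -0.78 ± 0.19. WRKY111 (GRMZM2G013391), of a family best known from defence responses, stood at 47.3, 65.5 and 44.1 in wildtype and at 29.7, 31.3, 39.7 and 24.7 in ndl1, a log2 fold change of -0.72 ± 0.25. Its ndl1 libraries came close to the lowest wildtype library.

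Of these 4 families only the G2-like genes had calls in either direction, and the EREB, MYB and WRKY genes had calls higher in ndl1 only. Over all 22416 genes tested 274 were called lower and 434 higher, or 1.22% and 1.94%. Of 25 EREB genes 2 rose, EREB179 and EREB94, and 16 had positive fold changes (median 0.29). Of 19 MYB genes MYB139 rose and 12 were positive (median 0.21). WRKY30 rose among 16 WRKY genes, which were balanced around 0 (9 negative, median -0.02). In the G2-like family GLK47 fell and GLK13 rose among 8 genes (median -0.11). Calls here are by limma with Benjamini-Hochberg adjustment over all genes.

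HK1b1 (GRMZM2G155767) encodes a histidine kinase of the cytokinin receptor family. It stood at 923, 989 and 828 in wildtype and at 411, 658, 699 and 458 in ndl1, a log2 fold change of -0.75 ± 0.19 (SE). Replicates 1 and 4 were lowest. In Bif1;Bif4 it lay at 794 and 598, both below the wildtype libraries of that table (mean 906 ± 83.0, SD, n = 3), with an L of -0.38 that is just inside the limit of the rule. All 6 tested histidine kinase genes, HK1b1 that the rule picked included, had negative fold changes in ndl1 (median -0.32, and -0.21 in Bif1;Bif4). Of these HK1a2 (GRMZM2G125943) was called, from 952 in wildtype to 693 in ndl1 (-0.46 ± 0.07, limma, Benjamini-Hochberg adjusted p = 0.0162). Among 37 further genes of cytokinin, gibberellin and brassinosteroid pathways 3 fell and 34 did not pass the test, and 31 had negative fold changes (median -0.23). The genes that fell were CKX10 (-1.15 ± 0.22), of the enzymes that degrade cytokinin, the DELLA gene d9 (-0.49 ± 0.10), whose product represses gibberellin responses, and an1 (-0.64 ± 0.12), of an early step of gibberellin synthesis.

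The remaining 3 named members encode a transporter, an enzyme and a protein of oil bodies. HAK11 (GRMZM2G005040), of the HAK family of potassium transporters, stood at 189, 148 and 167 in wildtype and at 80.8, 72.7, 71.4 and 57.3 in ndl1, a log2 fold change of -1.25 ± 0.17. All 4 ndl1 libraries were close together, and the Bif1;Bif4 libraries, at 211 and 184, lay in the upper part of the wildtype range or above it. Of 16 HAK genes, HAK11 included, 9 had negative fold changes (median -0.02), and none of the other 15 was called. The cinnamyl alcohol dehydrogenase gene cad1 (GRMZM2G046070), of a family that acts in the last step of lignin monomer synthesis, stood at 583, 816 and 741 in wildtype and at 315, 387, 394 and 254 in ndl1, a log2 fold change of -1.09 ± 0.18. In Bif1;Bif4 it lay at 542 and 532, below all wildtype libraries (mean 707 ± 117, SD, n = 3) and at the edge of the rule with an L of -0.40. The oleosin gene ole17 (GRMZM2G480954), whose product coats oil bodies, stood at 59.9, 58.8 and 37.1 in wildtype and at 28.8, 26.9, 29.1 and 17.8 in ndl1, a log2 fold change of -0.98 ± 0.28. In the RefSeq gene order HAK11 and cad1 lie near each other, with 12 genes between them.

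Other genes of the vascular and secondary wall list lay on the opposite side to cad1. Of its 18 tested members ccr2 rose, cad1 was called lower and 16 did not pass, and 15 of the 18 had positive fold changes (median 0.55). The summed level of this list was 31197 to 35832 normalized counts in wildtype, 37034 to 44273 in ndl1 and 35780 to 40307 in Bif1;Bif4, with no marker at 0 in any group. The summed level of 12 epidermis and cuticle genes was 12617 to 13269 in wildtype, 14823 to 19141 in ndl1 and 14085 to 14359 in Bif1;Bif4, also with none at 0. By single genes this list was mixed in ndl1, with 7 positive and 5 negative fold changes (median 0.12). In Bif1;Bif4 its median fold change over 11 tested genes was -0.22, opposite to the sum. A part of these tissue markers in the lower levels of the members was not tested.

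The members with the lowest L have no descriptive name. AC220970.4_FG001 stood at 343, 308 and 324 in wildtype and at 60.4, 57.1, 79.4 and 44.5 in ndl1, a log2 fold change of -2.44 ± 0.19, while Bif1;Bif4 was at 287 and 304. The groups were far apart and each was narrow. GRMZM5G855304 stood at 80.2, 66.5 and 66.1 in wildtype, and in ndl1 it had no read in replicates 1 and 2, 0.988 normalized counts in replicate 4 and 28.2 in replicate 3. Its transcripts were thus nearly absent from 3 ndl1 libraries and present in the other one. GRMZM2G590027 had no read in ndl1 replicate 2 and stood at 57.6, 97.9 and 36.6 in the other ndl1 libraries, against 132, 214 and 162 in wildtype. These 2 identifiers had the largest spread within ndl1, with SDs of 2.32 and 3.01 on the log2 scale against a median of 0.35 over the members.

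GRMZM2G150827 stood at 222, 268 and 132 in wildtype and at 26.9, 39.2, 67.0 and 43.5 in ndl1. GRMZM2G072868 stood at 100.5, 144 and 179 in wildtype and at 11.1, 21.3, 57.3 and 42.5 in ndl1. Both varied by over 2-fold between the Bif1;Bif4 libraries, at 124.1 and 376 and at 245 and 94.0. By wildtype read number GRMZM2G357660, GRMZM2G085577 and GRMZM2G164440 led the set. GRMZM2G357660 stood at 4234 ± 675 in wildtype (SD, n = 3) and 2406 ± 359 in ndl1 (SD, n = 4), and GRMZM2G085577 at 3913 ± 565 and 2211 ± 475. GRMZM2G164440 was at 2255 ± 352 and 1229 ± 505, its ndl1 libraries ranging from 570.0 in replicate 4 to 1635 in replicate 2.

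**Figure D2:**
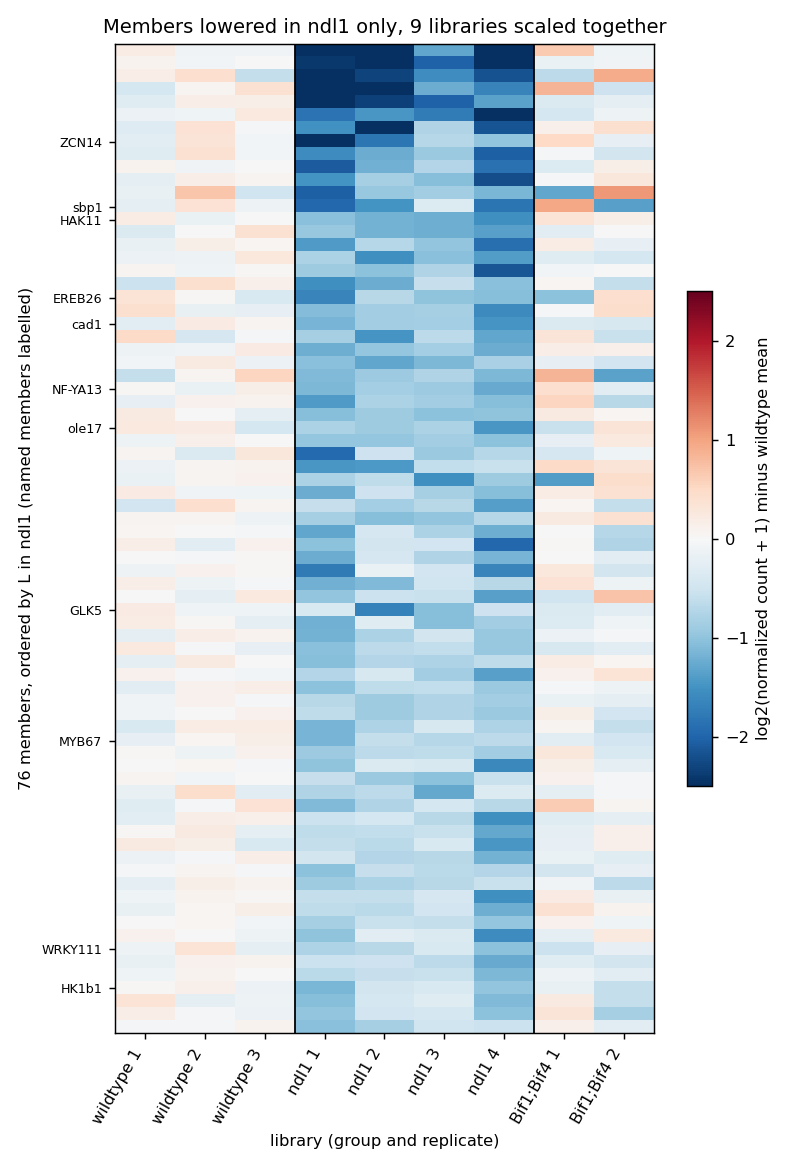
Log2(normalized count + 1) minus the wildtype mean for the 76 members (rows, ordered by L in ndl1) in the 9 libraries (columns), scaled together. Colours end at -2.5 and 2.5. The ndl1 columns are lower throughout and darkest in replicates 1 and 4, and the Bif1;Bif4 columns hold single cells of either sign.

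Within ndl1 the libraries differed in how low the members were. The median log2 deviation of the members from the wildtype mean was -1.05, -0.80, -0.75 and -1.16 in replicates 1 to 4, while the medians over all 18511 identifiers lay between -0.03 and -0.01. Replicate 4 held the lowest value for 34 members and replicate 1 for 32, against 7 for replicate 2 and 3 for replicate 3. The highest ndl1 value was in replicate 3 for 36 members and in replicate 2 for 24. No share over all genes is given for these counts. Among genes that met the ndl1 criteria, the 203 with an L below -0.4 in Bif1;Bif4 had medians of -1.29, -0.83, -0.84 and -1.33. The 44 with an L above 0.4 had -1.40, -1.39, -0.92 and -1.32. Low values in replicates 1 and 4 were thus not particular to the members. For 4 members the highest ndl1 library was under 50% of the lowest wildtype library, and for 11 it reached 90% or more. The vascular marker list deviated from wildtype by 0.69, 0.13, 0.57 and 0.82 on average in ndl1 replicates 1 to 4. Its wildtype libraries ran from -0.13 to 0.20, a range that includes ndl1 replicate 2, and Bif1;Bif4 stood at 0.69 and 0.29. The list of oxidative and mitochondrial stress genes deviated by 0.80, 0.48, 0.61 and 0.62 in ndl1. Its wildtype libraries ran from -0.11 to 0.12, and Bif1;Bif4 stood at 0.07 and -0.24. The part of these lists in the order of the libraries was not tested.

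Across the 9 libraries most members followed a common profile, as the rule favours. Pearson's r with the median profile of the members had a median of 0.88 and exceeded 0.8 for 64 of 76, over libraries that share the 3 groups. The most alike were GRMZM2G147051 (0.99), AC220970.4_FG001 (0.98), GRMZM2G023190 (0.97), AC203294.3_FG012 (0.97) and GRMZM2G072238 (0.97). The least alike were GRMZM2G397616 (0.50), GLK5 (0.57), GRMZM2G590027 (0.57), GRMZM2G458401 (0.63) and GRMZM5G898597 (0.66). GRMZM2G397616 and GRMZM2G458401 stood at 41.1 and 149 and at 233.9 and 1227 in the Bif1;Bif4 libraries, in each case below and above the wildtype range.

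The Bif1;Bif4 side of the rule was met by a mean of 2 libraries, and single libraries often lay outside the wildtype range. L in Bif1;Bif4 was negative for 48 members and positive for 28, with a median of -0.09. Both Bif1;Bif4 libraries lay within the wildtype range for 10 members, both below it for 14 and both above it for 3, and 49 were mixed. Over all 18511 identifiers both lay below in 23.1% and above in 19.8%. For 25 members 1 library lay below and the other above all wildtype libraries, and for 10 members, sbp1 and EREB26 among them, they differed by more than 2-fold. For these counts, and for those within the range or mixed, no share over all genes is given. They therefore describe the members without setting them apart from other genes. None of the 76 was called in Bif1;Bif4 by limma, edgeR or DESeq2 or in the authors' deposited table, and 5 had an unadjusted limma p under 0.05. For the unadjusted count no share over all genes is given, and the rule limited L in Bif1;Bif4, so it is a description only. Over all genes tested, limma called 2.05% lower and 2.23% higher in Bif1;Bif4, edgeR 1.9% and 2.31% and DESeq2 4.52% and 4.88%, and the corresponding shares in the authors' deposited table were 4.23% and 4.56%. The 95% limma interval of the Bif1;Bif4 fold change lay above -0.7 for 43 members and reached -0.7 or lower for 33, so that for these 33 a decrease as large as the ndl1 threshold lay within the error.

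In the same way the ndl1 calls only describe the selection. Limma called 31 of the 76 lower in ndl1, against 1.22% of all genes tested, edgeR 31 (1.28%), and DESeq2 63 (3.79%). The authors' deposited table called 62 (3.62%). Leaving out wildtype replicate 1, 2 or 3 gave 11, 6 or 12 limma calls, and leaving out ndl1 replicate 1 gave 14. All 76 fold changes were negative in each of these fits, a direction that the rule largely set in advance. With the 9 libraries scaled together, all 4 ndl1 libraries lay below both Bif1;Bif4 libraries for 59 members, against 15.2% of the 18511 identifiers. The median log2 difference between ndl1 and Bif1;Bif4 was -0.81, all 76 were negative, and limma called 20, against 1.68% of all genes tested, while DESeq2 called 39 (3.29%). The number called by limma was 7 without either Bif1;Bif4 replicate 1 or 2, 13 with wildtype replicate 2 left out and 11 with ndl1 replicate 1 left out.

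The differences between the mutants have a sign and size that the rule favours, so their intervals describe the spread of the libraries and do not bound the size in other samples. The log2 difference was -1.49 for HAK11 (95% limma interval -1.90 to -1.09) and -1.10 for NF-YA13 (-1.59 to -0.60). For cad1 it was -0.71 (-1.13 to -0.28), and for ZCN14 -1.82 (-3.15 to -0.49). The interval reached 0 for sbp1 (-2.61 to 0.19), EREB26 (-1.68 to 0.07), GLK5 (-1.37 to 0.18), MYB67 (-0.87 to 0.06), WRKY111 (-0.95 to 0.26) and HK1b1 (-0.85 to 0.13). For ole17 it ran from -1.63 to -0.10.

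A property that the rule did not use was the place of the members in the genome. The build behind the deposited counts is not given in the sources used here, so only the gene order of the RefSeq table is used. Of the 50 placed members 13, or 26.0%, lay on the chromosome that carries NDL1 itself, which held 9.08% of all 12936 placed genes with a wildtype mean of at least 50. Counting in this order of placed genes, 7 members lay within 100 genes of NDL1, or 14% against 1.55% of all placed genes. The width of 100 was chosen after the positions had been seen. Within 50 genes on either side there were 6 members among 100 genes, and within 25 there were 4 among 50. When the genome was divided into 130 stretches of about 100 placed genes, the stretch around NDL1 held 6 members and no other held more than 3.

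The 7 members near NDL1 have no descriptive name. On one side of it lay GRMZM2G147051, GRMZM2G016605, GRMZM2G072238, GRMZM2G110584, GRMZM2G091980 and GRMZM2G092000, the last with 18 RefSeq genes between it and NDL1. GRMZM2G178815 lay on the other side with 21 RefSeq genes between. GRMZM2G091980 and GRMZM2G092000 are direct neighbours that do not overlap in the RefSeq table. GRMZM2G016605 differed most, at 233, 322 and 317 in wildtype and 40.9, 55.9, 70.5 and 114 in ndl1. GRMZM2G072238 stood at 821, 844 and 1044 in wildtype and at 383, 458, 499 and 378 in ndl1. GRMZM2G110584 stood at 241, 241 and 210.0 in wildtype and at 129, 109.6, 116 and 139 in ndl1, while Bif1;Bif4 was at 267 and 296. For all 7 the rule required the ndl1 libraries to lie below wildtype. GRMZM2G091980 and GRMZM2G178815 were not called lower (limma, Benjamini-Hochberg adjusted p = 0.0968 and 0.120). L in Bif1;Bif4 had a median of 0.13 for these 7 members and -0.14 for the 43 placed elsewhere.

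Lower values in ndl1 were also more frequent when all genes around NDL1 were counted, the 7 members included. Of the 200 genes within 100 places of NDL1, 26.0% had all 4 ndl1 libraries below all wildtype libraries, against 11.4% of the 12735 placed genes beyond. The opposite order, all ndl1 libraries above wildtype, held for 6% and 8.59%. The 7 members, which the rule picked for lying below wildtype, were among the 52 genes behind the 26.0%. By limma 18 of the 200 were called lower and 2 higher, or 9.00% lower against 1.24% of the genes beyond. Of these 18 genes 5 were members. The shares therefore partly count genes that the rule picked. In a comparison that uses no wildtype library, all 4 ndl1 libraries lay below both Bif1;Bif4 libraries for 30% of the 200 genes and 14.4% of the genes beyond. Over the whole chromosome of NDL1 this share was 24.2%, against 13.7% on all other chromosomes. Much of the contrast was therefore not local to NDL1. In Bif1;Bif4 the share of genes below wildtype was similar around NDL1 and beyond, at 24.5% and 23.7%. The share above wildtype was larger around NDL1, at 25.5% against 19.9%. It was also larger on the rest of the chromosome of NDL1, at 26.4%, than on all other chromosomes, at 19.4%. NDL1 was not the only place on its chromosome where values lower in ndl1 were frequent. In windows of 51 genes the share below wildtype reached 41.2% near NDL1 and 39.2% at 341 genes from it, and BIF1 lies on the same side at 359 genes from NDL1. Around BIF1, 30% of 100 genes lay below wildtype in ndl1, and 2 members were among them. Of the same 100 genes 41% had both Bif1;Bif4 libraries above wildtype and 20% had both below, and for 49% all ndl1 libraries lay below both Bif1;Bif4 libraries. The cause of these clusters was not tested.

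**Figure D3:**
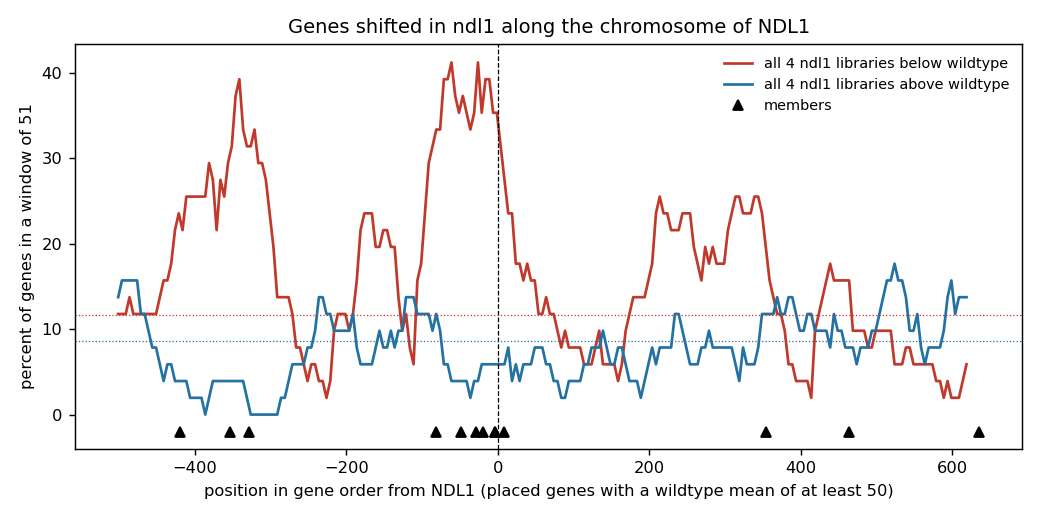
Percent of genes in windows of 51 placed genes whose 4 ndl1 libraries all lie below (red) or above (blue) the 3 wildtype libraries, by position in gene order from NDL1 (dashed line). Dotted lines give the shares over all placed genes, 11.6% and 8.55%, and triangles mark the 13 members. The red line peaks at 41.2% beside NDL1 and at 39.2% to the left, and the blue line has no such peak there.

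The ndl1 libraries lay closer together for the members near NDL1 than for the others, by their medians. The median deviation of these 7 members from wildtype was -0.99, -0.97, -0.85 and -0.96 in ndl1 replicates 1 to 4. The 43 members placed elsewhere had medians of -1.05, -0.73, -0.71 and -1.16, with replicates 1 and 4 lower than replicates 2 and 3. The 26 members without a single place had -1.18, -0.87, -0.84 and -1.21, the same order as those placed elsewhere. The median SD within ndl1 was 0.24 on the log2 scale near NDL1 (range 0.15 to 0.61) and 0.35 elsewhere (range 0.07 to 1.12), so that the ranges overlapped and no test was made.

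**Figure D4:**
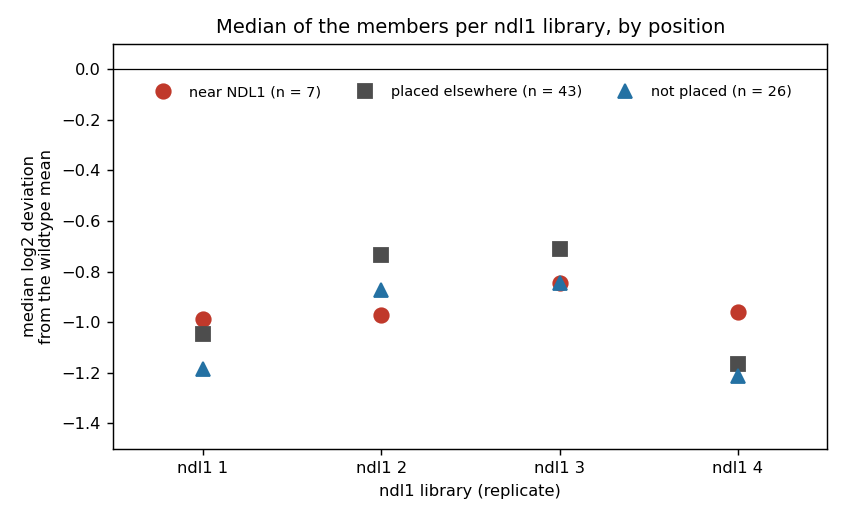
Median log2 deviation from the wildtype mean in each ndl1 library for members near NDL1 (n = 7), placed elsewhere (n = 43) and not placed (n = 26). The members near NDL1 stay between -0.99 and -0.85, and those placed elsewhere run from -1.16 to -0.71.

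The set is one of 3 into which the genes lowered in ndl1 divide by their Bif1;Bif4 value. Beside the 76 members, 203 genes met the ndl1 criteria with an L below -0.4 in Bif1;Bif4 and 44 with an L above 0.4, of 324 in all with 1 identifier that the rule leaves out. The shares of their genes near NDL1 were unlike. On the chromosome of NDL1 were 8.70% of the 138 placed genes lower in both mutants, 26.0% of the 50 placed members and 87.5% of the 24 placed genes that were higher in Bif1;Bif4. Within 100 genes of NDL1 were 0.725%, 14% and 41.7%. Of all 212 placed genes lower in ndl1 by these criteria 21.7% were on that chromosome, and of 292 genes higher by the mirrored criteria 6.85%. The sets share all ndl1 and wildtype libraries, and the differences were not tested.

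Few members were in the lists of inflorescence and organ development genes, which were matched by gene symbol. The share was above that of all genes and below that of the genes lower in both mutants. It rests on 2 members and was not tested. The lists of MADS box, homeobox, inflorescence, and polarity and growth genes together held 2 of the 76 members (2.63%), ZCN14 and sbp1, against 16 of the 203 genes lower in both mutants (7.88%) and 0.778% of the 18511. Of 55 tested genes in the inflorescence list 4 fell in ndl1 and 51 did not pass the test (median -0.20). The 4 that fell, BA1, baf1, TD1 and nam1, were all called lower in Bif1;Bif4 as well (limma, Benjamini-Hochberg adjusted p = 0.00303, 0.00303, 0.0181 and 0.00316), so none of them is a member. No member belonged to the lists of cell cycle genes, histones, auxin genes, epidermis genes or ribosomal proteins. These lists held only 28, 12, 39, 9 and 31 of the 18511 identifiers, so their absence among 76 members says little. GLK5 was in the photosynthesis and plastid list, of which 1 gene fell, 2 rose and 28 did not pass (median -0.12). WRKY111 was in the list of oxidative and mitochondrial stress genes, where the calls lay on the other side, with 1 gene lower, 14 higher and 85 not passing (median 0.19).

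**Figure D5:**
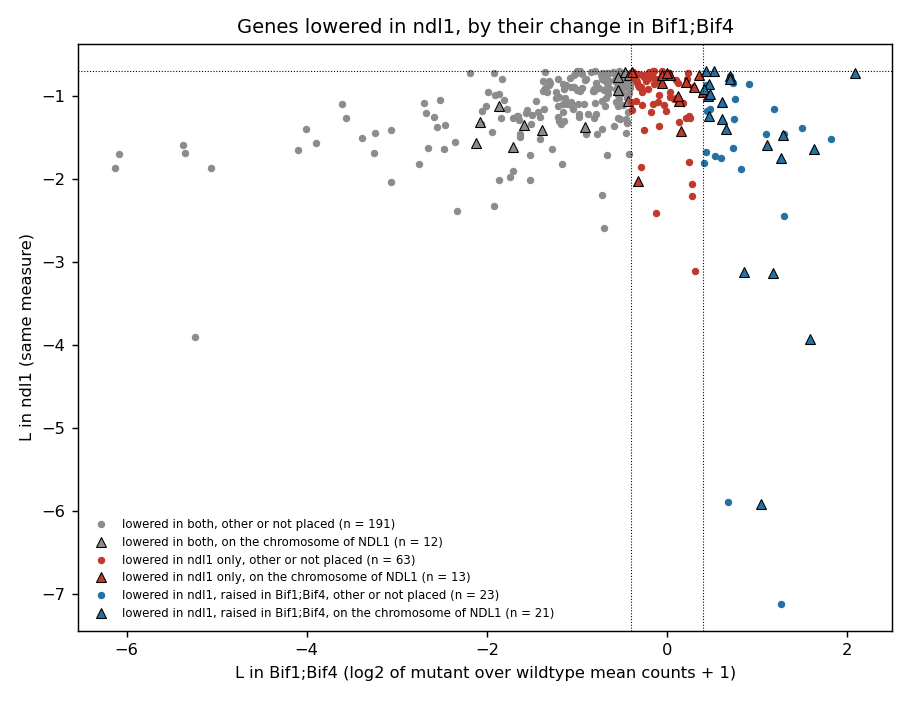
L in ndl1 against L in Bif1;Bif4 for the genes that met the ndl1 criteria, without the 1 identifier that the rule leaves out, with dotted lines at the thresholds of the rule. Triangles with black edges are genes on the chromosome of NDL1, which make up 12 of the 203 genes lower in both mutants, 13 of the 76 members and 21 of the 44 genes higher in Bif1;Bif4.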

How the data were processed

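The authors deposited 1 table per mutant against wildtype. Each signal value is a normalized count, that is, reads divided by a size factor estimated by the authors with DESeq2, as the file headers and values show. The same deposited tables hold the authors' log2 fold changes, a score (the DESeq2 test statistic) and a p-value for each gene, per the file headers. Trimmomatic, TopHat2 2.1.1 and HTSeq are named in the submitters' processing notes. Sources used here give neither the genome build nor the strand setting, so reads of overlapping or near-identical genes are uncertain. Dividing by the worth of 1 read gave whole reads (within 0.1) for 100% of values in every library, and these recovered reads served for filtering and count tests.

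Members followed the stated rule. With R 4.3.3, limma 3.58.1 (trend option) was fitted to log2(normalized count + 1) of each table, after edgeR's filterByExpr with a minimum count of 10, with Benjamini-Hochberg adjustment at 0.05. For ndl1 against Bif1;Bif4 the recovered reads of all 9 libraries were scaled together. All 76 members passed the filter. EdgeR (4.0.16), DESeq2 (1.42.0), a pseudocount of 5, no filter, a replicate block and each library left out were tried, and limma was tested on simulated data. The members and lists were chosen with earlier results of these data known. Named were all members with a descriptive name, the 5 lowest L, the 3 highest wildtype means, the 3 nearest the threshold, and the 5 most and 5 least like the median profile. Others, such as those near NDL1, were chosen after their values were seen. Of all identifiers 18476 matched 1 RefSeq gene and 521 several. The gene hsbp1, with SBP1 as a synonym, was left out of the lists. No sequences are shown because none were used here.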

Additional observations from a re-analysis of the deposited data

Results flagged for a closer look

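Among 31 sets of 4 ndl1 values examined, the named members and the median of all members, 1 held a library far from the other 3. For GRMZM5G855304 the gap between ndl1 replicate 3, at 28.2 normalized counts, and the next library, at 0.988, was 0.965 of the whole range and past the 95% limit of Dixon's test for 4 values. Chance gives about 1 such set in 20.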

How the results depend on the processing

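The direction of all named members in ndl1 against wildtype was the same in every fit of that comparison. The rule largely set this direction in advance, with all ndl1 libraries below all wildtype libraries, so it does not measure robustness. In Bif1;Bif4 against wildtype the fold change of sbp1 was -0.20 by limma, 0.22 by edgeR and 0.21 by DESeq2, and that of GRMZM2G458401 -0.10, 0.24 and 0.25, none of them called. Genes called in ndl1 numbered 708, with 2210 by DESeq2, 365 with a replicate block, and 111 to 1467 when each library was left out in turn. Members called lower numbered 31, with 63 by DESeq2, 20 with the replicate block, and 6 to 39 with a library left out. Members called lower than in Bif1;Bif4 numbered 20, with 39 by DESeq2, 11 with the replicate block, and 7 to 23 with a library left out. Members called in Bif1;Bif4 remained at 0 in each fit. The rule picked 76 genes, 78 with all libraries scaled together (76 of them shared), 89 by CPM (75 shared), and 63 to 116 with a library left out. It picked 116 without ndl1 replicate 3, 113 without ndl1 replicate 2 and 112 without wildtype replicate 1, and the last shared 56 with the 76. The median L of the members stayed between -0.96 and -0.83, but each setting picked its members again with the same upper limit on L. This range therefore does not measure how stable the decrease of the 76 was. The cause of the differences in number between settings was not tested. Replicate numbers did not pair the libraries: same-numbered wildtype and ndl1 libraries had deviations correlated at -0.20, 0.26 and -0.06, so the block results say nothing of effect size. Low read numbers limit the fold changes of the 19 members under 100 normalized counts.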
